A study of Rattus norvegicus with 22 samples.

Results

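Podocytes made up 6425 of the 310282 rat kidney nuclei in the deposited single-nucleus RNA-Seq annotation, and every nucleus that the authors' annotation calls Podo was taken, in all treatments. Podocytes are the epithelial cells on the outer side of the glomerular capillary. Their interlocking foot processes are joined by the slit diaphragm, of which nephrin, the product of Nphs1, is a main part, and together with the basement membrane and the fenestrated endothelium they form the filtration barrier. Mature podocytes divide little, and their injury and loss are known features of proteinuric and hypertensive kidney disease.

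The study asked how a mineralocorticoid, deoxycorticosterone acetate (DOCA), and drugs that oppose it act on kidney cells of male Sprague-Dawley rats. Control rats were sham operated and received no DOCA. All other rats had 1 kidney removed, drank salt water and received DOCA at 50 mg/kg each week by subcutaneous injection. The DOCA group received vehicle by gavage, and the other groups received finerenone at 10 mg/kg per day, spironolactone at 50 mg/kg per day or amiloride at 20 mg/kg per day. Finerenone and spironolactone block the mineralocorticoid receptor, and amiloride blocks the epithelial sodium channel. There were 22 libraries of whole kidney, 5 in each of the control, DOCA, finerenone and spironolactone groups and 2 in the amiloride group. The sample labels give 3 weeks for 1 sample in each of the DOCA, finerenone and spironolactone groups and 6 weeks for all others, under the tag age. By the paper's methods these are weeks from the start of the intervention to the end of the experiment, not ages of the rats. The annotation names the treatment of each library but not its time, so both times enter together. The library names match no sample name. Each library is taken here as 1 replicate of its treatment because their numbers per treatment equal those of the samples, and whether the libraries of a group came from separate rats is not given, so the SDs and p-values below measure the spread between libraries only. All comparisons with a drug share the same DOCA libraries, and DOCA cannot be told apart from nephrectomy and salt in the comparison with control. Nuclei were counted in a suspension, so fewer podocytes in the kidney and fewer podocyte nuclei recovered cannot be told apart. The names of 5 libraries, 1 in each treatment, hold the letters MO. These are called Multiome libraries below because the methods give the Multiome kit, which takes RNA and open chromatin from the same nucleus, for 5 samples. No label names the kit of a library, so this is a reading of the names. Pairs of these 5 libraries shared 2.01% to 3.12% of the barcodes of the smaller library. Pairs of 1 of them with any other library shared at most 0.0197%. The 136 pairs without any of them shared 0% to 2.10% (median 0.465%), which overlaps the first range. Gene values were not analysed here, and the label was therefore not checked against Nphs1.

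Libraries held 759 to 48403 nuclei and 1 to 2586 podocytes. Podocytes in control libraries were 0.242% of 1238 nuclei, 0.809% of 5312, 0.996% of 6629, 1.53% of 14747 and 0.803% of 18931. In DOCA libraries they were 0.395% of 1774 nuclei, 0.843% of 8300, 0.310% of 8716, 0.534% of 13307 and 0.560% of 15167. The control and DOCA values overlapped, with 4 control libraries at or above 0.803% and 4 DOCA libraries at or below 0.560%. In finerenone libraries podocytes were 0.366% of 6564 nuclei, 0.236% of 9325, 1.08% of 13679, 4.61% of 40267 and 1.32% of 48403. In spironolactone libraries they were 0.132% of 759 nuclei, 0.281% of 6404, 0.382% of 13610, 0.573% of 22151 and 7.68% of 33683. Each of these drug groups thus held values both below and far above the DOCA libraries. The amiloride libraries, at 0.619% of 10172 nuclei and 1.24% of 11144, lay within and above the DOCA range. The smallest libraries say little: the share of 0.132% rests on 1 podocyte, with an exact 95% confidence interval of 0.00334% to 0.732%, while that of 7.68% rests on 2586, with an interval of 7.40% to 7.97%. These intervals cover counting error only.

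Proximal tubule nuclei, the commonest in the kidney, ranged from 28.4% to 85.7% of a library and so move every share of all nuclei. Podocytes were therefore also counted among non-proximal-tubule nuclei, leaving out the convoluted, straight and injured proximal tubule types. On this scale the control libraries, in the same order, had 0.430%, 1.31%, 2.16%, 3.22% and 1.62% podocytes. The DOCA libraries had 0.982%, 1.74%, 0.794%, 1.08% and 0.988%. The overlap between these groups remained, and the control libraries spread more widely than the DOCA ones. The finerenone libraries had 0.801%, 0.607%, 2.01%, 10.3% and 9.27%, and the spironolactone libraries had 0.328%, 0.666%, 0.924%, 1.28% and 10.7%. The amiloride libraries had 1.38% and 2.87%. The finerenone library of 48403 nuclei, of which 85.7% were proximal tubule, lay within the range of the control libraries at 1.32% of all nuclei but had 9.27% podocytes among the others.

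**Figure D1:**
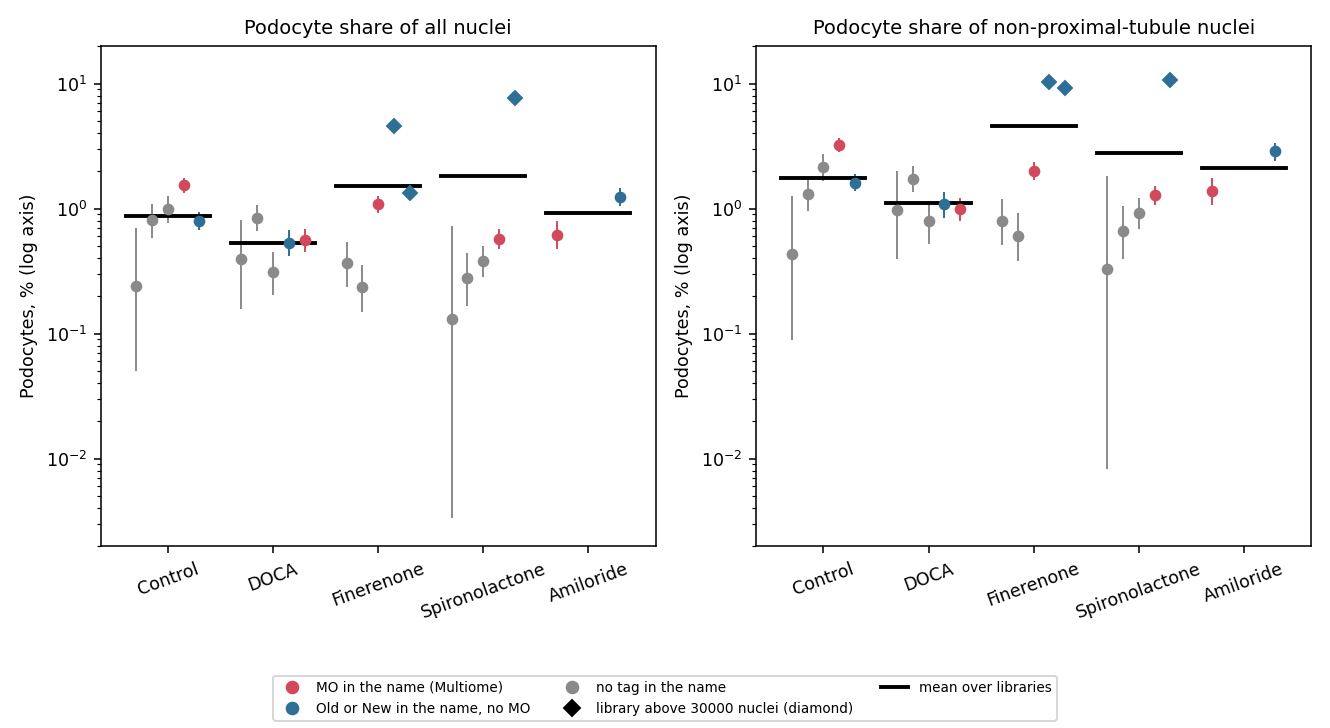
Podocytes as percent of all nuclei (left) and of non-proximal-tubule nuclei (right) in each of the 22 libraries by treatment, on log axes. Error bars are exact 95% intervals for counting error, diamonds are the 3 libraries above 30000 nuclei and black lines are means over libraries. On the right the diamonds lie at 9.27% to 10.7% and no other library exceeds 3.22%.

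Podocytes were fewer in DOCA than in control libraries on average, but the difference did not pass the test. The share of all nuclei was 0.528% ± 0.204 (SD, n = 5) under DOCA and 0.877% ± 0.463 (SD, n = 5) in control, a difference of -0.348 percentage points with a 95% interval of -0.84 to 0.16 (exact permutation test, two-sided, p = 0.175, Benjamini-Hochberg adjusted over 16 cell types 0.279). Among non-proximal-tubule nuclei the means were 1.12% ± 0.362 and 1.75% ± 1.03 (n = 5 each), a difference of -0.631 points (exact permutation p = 0.262, adjusted over 13 types 0.451). By the exact permutation test no cell type passed an adjusted p of 0.05 in this comparison (0 of 16, 0%), and 5 of 16 (31.2%) had an unadjusted p below 0.05, podocytes not among them. Among non-proximal-tubule shares these counts were 0 of 13 (0%) and 4 of 13 (30.8%).

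The DOCA result depended on single libraries. Without the control library of 1238 nuclei, which held 3 podocytes, the difference in the share of all nuclei was -0.507 points (exact permutation p = 0.0317, unadjusted), and that among non-proximal-tubule nuclei was -0.960 points with the same p. Without the control Multiome library of 14747 nuclei, the highest of the group, these differences were -0.184 and -0.262 points. The difference stayed negative in each of the 10 sets that leave out 1 library. Within the libraries tagged Old or New by name it was -0.621 points of all nuclei (2 against 2) and within those without a tag -0.167 points (3 against 3).

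Under finerenone the mean podocyte share of all nuclei was 1.52% ± 1.79 (SD, n = 5), against 0.528% ± 0.204 under DOCA, a difference of 0.995 points with a 95% interval of -0.30 to 2.60 (exact permutation p = 0.222, adjusted 0.593). Among non-proximal-tubule nuclei the mean was 4.60% ± 4.78 and the difference 3.48 points (exact permutation p = 0.238, adjusted 0.604). No cell type passed the adjusted test (0 of 16 and 0 of 13, 0%), and 2 of 16 (12.5%) and 1 of 13 (7.69%) had an unadjusted p below 0.05. Leaving out the finerenone library of 9325 nuclei, the lowest of the group, raised the difference to 1.32 points of all nuclei (exact permutation p = 0.0397, unadjusted) and to 4.48 points of non-proximal-tubule nuclei (p = 0.0476). In contrast, leaving out the finerenone library of 40267 nuclei lowered it to 0.223 points of all nuclei and 2.06 points of the others. Within tagged libraries the difference was 1.79 points of all nuclei (3 against 2), and within untagged ones it was -0.215 points (2 against 3).

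Under spironolactone the mean share of all nuclei was 1.81% ± 3.28 (SD, n = 5), a difference from DOCA of 1.28 points with a 95% interval of -0.44 to 3.76 (exact permutation p = 0.897, adjusted 0.897). Among non-proximal-tubule nuclei it was 2.78% ± 4.45, a difference of 1.67 points (exact permutation p = 0.865, adjusted 0.954). No type had an unadjusted p below 0.05 on either scale (0%). The whole of the rise in the mean came from 1 library: without that of 33683 nuclei the differences were -0.186 and -0.317 points, and 4 of the 4 remaining libraries were below 0.6% of all nuclei. Within tagged libraries the difference was 3.58 points of all nuclei (2 against 2), and within untagged ones -0.251 points (3 against 3).

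The amiloride libraries averaged 0.929% of all nuclei and 2.12% of non-proximal-tubule nuclei (n = 2), which was 0.400 points (95% interval -0.22 to 0.92) and 1.01 points above DOCA. The exact permutation p was 0.143 (adjusted 0.457) on the first scale and 0.0952 (adjusted 0.619) on the second, where 2 libraries against 5 cannot give less than 0.0476. No type had an unadjusted p below 0.05 (0%). Leaving out the amiloride library of 11144 nuclei lowered the difference to 0.0910 points of all nuclei, and both amiloride libraries carried a name tag (0.382 points against the 2 tagged DOCA libraries).

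The podocytes of the series came mainly from 3 libraries, those above the 30000 cells that the methods give as loaded per run. The finerenone libraries of 40267 and 48403 nuclei and the spironolactone library of 33683 held 1856, 640 and 2586 podocytes. Together they held 5082 podocytes, 79.1% of all, and 39.4% of the nuclei. They supplied 92.8% of the finerenone and 92.9% of the spironolactone podocytes, so any value taken over the nuclei of these treatments is largely a value of 3 libraries. Pooled over nuclei, podocytes were 1.05% in control, 0.550% in DOCA, 2.28% in finerenone, 3.63% in spironolactone and 0.943% in amiloride. The split at 30000 nuclei was chosen after the library sizes and podocyte shares had been seen, so no test is given for it. Without the 3 libraries the finerenone difference from DOCA was 0.0328 points of all nuclei and 0.0241 points of the others (3 against 5). The spironolactone differences were then -0.186 and -0.317 points (4 against 5).

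The 3 libraries differed from the others more in podocytes than in any other type. Their median podocyte share of non-proximal-tubule nuclei, 10.3%, was 9.52 times the median of 1.08% in the other 19 libraries, and podocytes were the only one of 13 types for which all 3 lay above all 19. The 3 libraries were set apart after their podocyte shares had been seen, so the first place of podocytes is a description only. Among types with a higher median in the large libraries, myofibroblasts, the contractile stromal type, came next at 2.61 times, with 2.43% to 5.78% against 0.412% to 3.78%. Loop of Henle nuclei were at 1.25 times, endothelial nuclei, which include those of the glomerular capillary, at 0.458 times and macrophages at 0.379 times. Because endothelial nuclei were lower, podocytes per 100 endothelial nuclei differed even more, at 65.7, 99.7 and 156 against 1.32 to 21.2. The part of library preparation, loading or nucleus calling in this was not tested, and each of the 3 libraries carries a New tag whose meaning is not given. The other 3 libraries with this tag had 1.08%, 1.38% and 2.87% podocytes among non-proximal-tubule nuclei.

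**Figure D2:**
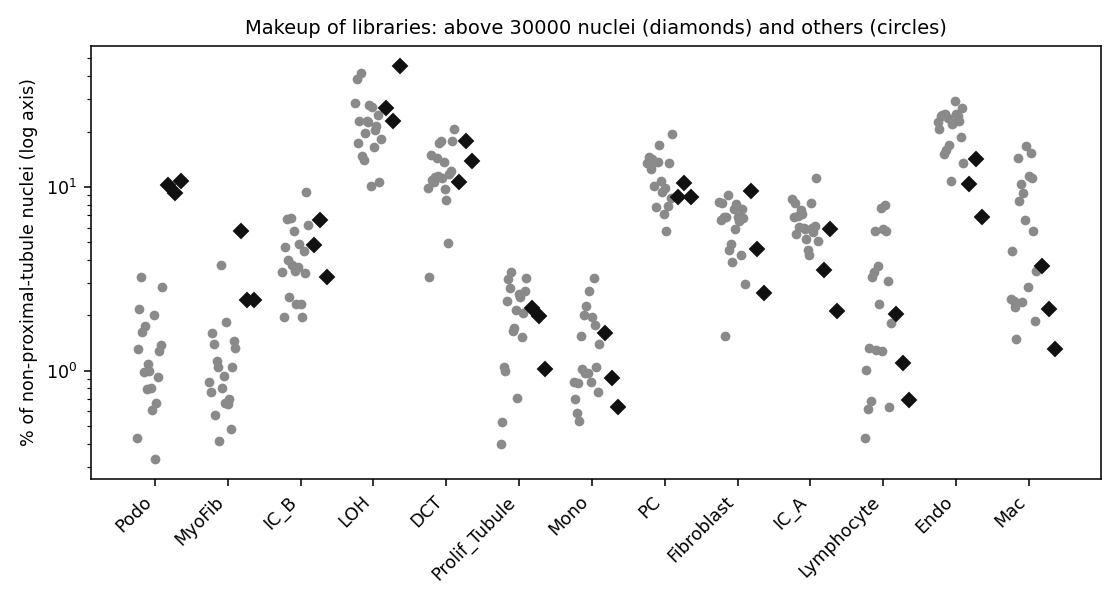
Share of each of 13 cell types among non-proximal-tubule nuclei on a log axis, 1 point per library, with the 3 libraries above 30000 nuclei as black diamonds and the other 19 as grey circles; types are ordered by the ratio of the medians. Podocytes stand at the left, where 9.27% to 10.7% is set against 0.328% to 3.22%, and 1 library with 0 proliferating tubule nuclei is not drawn.

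Podocytes were also the most variable type between libraries, but only with those 3 included. Over the 19 libraries with at least 2000 nuclei the SD of the log2 share of non-proximal-tubule nuclei was 1.29 for podocytes, the highest of 13 types, next to 1.23 for lymphocytes and 1.16 for macrophages. Over the 16 of these with at most 30000 nuclei it was 0.72, rank 6 of 13. These values include differences between treatments.

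Podocyte shares were set against the size and makeup of the libraries. The 3 large libraries form a separate cluster, so no coefficient over all 22 is given. The planned correlation over all 22 did pass for size (adjusted permutation p = 0.00224 by rho). Among the 19 libraries with at most 30000 nuclei the share of non-proximal-tubule nuclei against the log10 of the number of nuclei gave Pearson r = 0.478 (permutation p = 0.0366, adjusted over 4 relations 0.147) and Spearman rho = 0.512 (permutation p = 0.0264, adjusted 0.106). Without the 2 libraries of the most extreme size r was 0.257. Centred on the treatment mean, over the 17 libraries of the treatments other than amiloride, it was 0.579, which was not tested. Neither coefficient over the 19 libraries passed the adjusted test. The shares of loop of Henle nuclei and of endothelial nuclei among the rest had rho of 0.10 and -0.047, and r of 0.0786 and -0.0737. For the share of convoluted among convoluted and straight proximal tubule nuclei rho was 0.132 and r 0.224. By rho the adjusted permutation p was 0.847 for each.

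Some libraries bear related names. There were 7 pairs with the same stem and a different tag, 2 of them within a treatment, and whether such a pair came from 1 rat is not given. A spironolactone pair had 0.382% podocytes in 13610 nuclei without a tag and 7.68% in 33683 nuclei with the New tag. A control pair had 0.242% in 1238 nuclei without a tag and 1.53% in 14747 nuclei of the Multiome library. The control pair were the lowest and the highest library of their group, and the lower value rests on 3 podocytes. These are differences between single libraries and cannot be set against differences between group means. Of the pairs across treatments, 3 joined a DOCA and a finerenone library, with 0.395% against 4.61%, 0.843% against 1.32% and 0.534% against 1.08%. The finerenone library was higher in each, and it was 1 of the 3 large libraries in the first and the second and the Multiome library in the third. The other 2 joined the amiloride Multiome library (0.619%) to both libraries of the control pair. Cell barcodes were shared by at most 3.12% of the smaller library over 231 pairs of libraries (median 0.229%), and 12 podocytes carried a barcode that was also a podocyte in another library. None of these values sets a pair of libraries apart as 1 library deposited more than once.

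On the deposited UMAP, a map without a unit on which nuclei of similar expression lie close, the podocytes formed an island. Of the 6425 podocytes, 6422 lay above 12 on UMAP 1, taken here as the limit of the island, together with 6 nuclei of other names (3 loop of Henle, 2 straight proximal tubule and 1 injured proximal tubule). Of the other 3 podocytes, 1 from the DOCA library of 13307 nuclei lay at the edge of the island, at 11.97 on UMAP 1 with 100% podocytes among its neighbors, and was counted in no arm. The 2 others, from the finerenone library of 13679 nuclei, lay far from it at -0.389 and -1.13. Of all 30-nucleus neighborhoods of podocytes, 98.0% held podocytes only, and 99.9% of neighbors were podocytes, the highest of 16 types, followed by 99.4% for type B intercalated cells. The names were given to clusters of the same nuclei, so this describes the annotation and is no independent test of it. Outside the island the nearest nucleus of another name, an injured proximal tubule nucleus, was 6.99 map units from the podocyte median, against a radius of 0.617 that held 95% of podocytes.

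Within the island, position varied with the kind of library name. The Multiome libraries, 1 in each treatment, had podocytes drawn out into an upper arm (UMAP 2 above 0.2) and a lower arm (below -0.6), limits set after the map was seen. The SD of UMAP 2 was 0.492 over the 647 island podocytes of the 5 Multiome libraries, 0.160 over the 5082 of the 3 large libraries and 0.266 over the 693 of the other 14. The upper arm held 17.9%, 0.0984% and 3.61% of these podocytes, and the lower arm 32.1%, 2.40% and 12.7%. Of the 6 libraries with the Old or New tag and without MO, 4 had no podocyte in the upper arm, and the DOCA library of 13307 nuclei and the finerenone library of 48403 had 2 (2.82%) and 5 (0.781%). For 0 of 1856 and 0 of 2586 podocytes this allows a share of up to 0.162% and 0.116%, and for 0 of 152 (control) and 0 of 138 (amiloride) up to 1.97% and 2.17%. These upper limits cover counting error only, and the arms were drawn on these same podocytes.

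**Figure D3:**
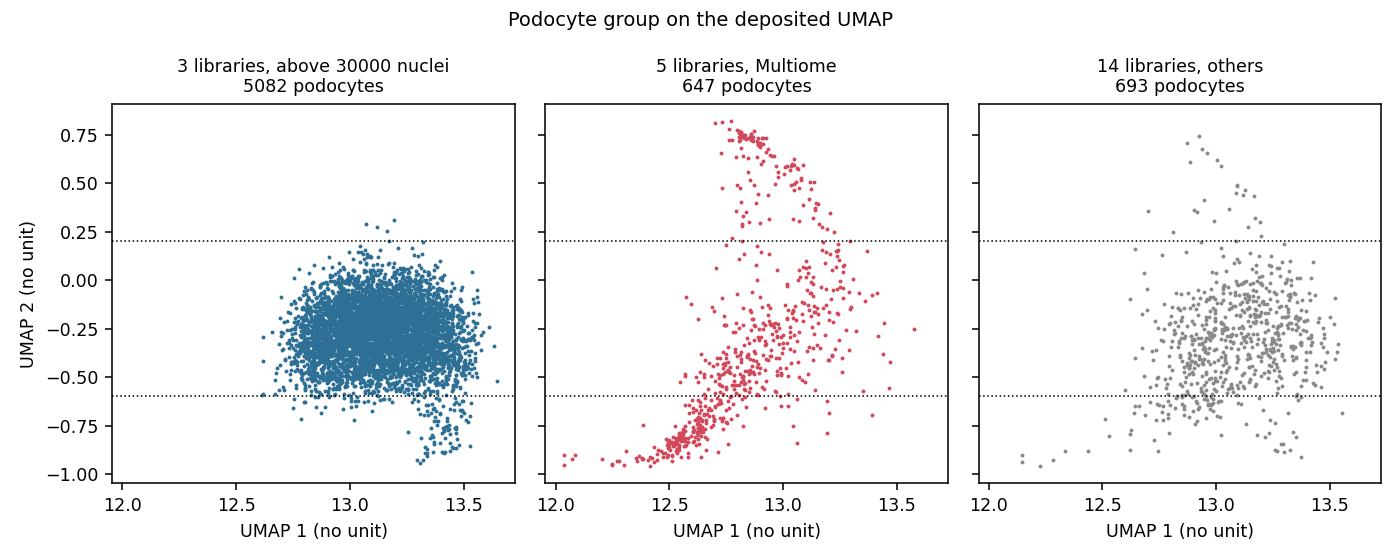
Podocytes within the UMAP island, 1 point per nucleus, for the 3 libraries above 30000 nuclei, the 5 Multiome libraries and the other 14 libraries; axes are UMAP 1 and UMAP 2 without unit, and dotted lines mark the limits of the arms at 0.2 and -0.6. The Multiome podocytes spread along both arms, and those of the large libraries fill the body between the lines.

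The share of podocytes in both arms was taken over the 18 libraries with at least 20 podocytes. In control it was 32.6% in the library of 5312 nuclei, 15.2% in that of 6629, 7.24% in that of 18931 and 55.3% in the Multiome library. In DOCA it was 22.9% in the library of 8300 nuclei, 33.3% in that of 8716, 19.7% in that of 13307 and 49.4% in the Multiome library. The Multiome library was the highest of its treatment in both groups. In finerenone it was 29.2% in the library of 6564 nuclei, 36.4% in that of 9325, 1.83% in that of 40267, 5.16% in that of 48403 and 48.0% in the Multiome library. Spironolactone had 21.2% in the library of 13610 nuclei, 2.32% in that of 33683 and 44.1% in the Multiome library, and amiloride had 2.90% in the tagged library and 47.6% in the Multiome library. Over all 5 treatments the Multiome libraries lay at 44.1% to 55.3%, the 7 untagged libraries at 15.2% to 36.4% and the 6 tagged libraries without MO at 1.83% to 19.7%. The Multiome libraries did not overlap the others, and this order was seen on the same map from which the limits were taken.

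**Figure D4:**
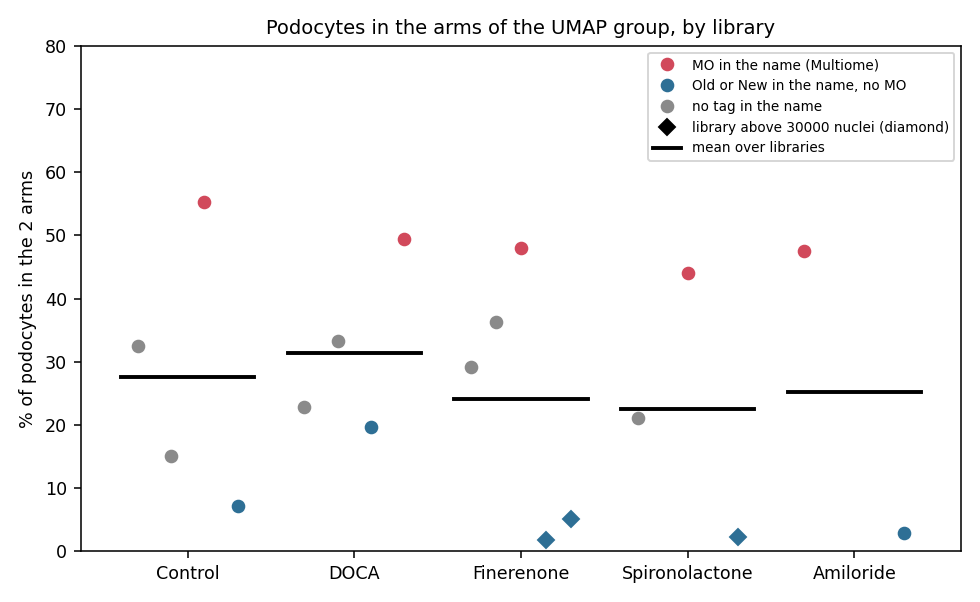
Percent of podocytes in the 2 arms of the UMAP island, 1 point per library with at least 20 podocytes, by treatment; color gives the kind of library name, diamonds are libraries above 30000 nuclei and black lines are means over libraries. The Multiome libraries lie at 44.1% to 55.3% in all 5 treatments, above every other library.

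Between treatments, no difference in podocyte position passed the test. The tests took 4 control, 4 DOCA, 5 finerenone, 3 spironolactone and 2 amiloride libraries, 1 of each group a Multiome library. They did not take the kind of library name into account, with which position varied widely. A difference between treatments could thus be missed, and these results do not show that positions were the same. The mean arm share was 3.77 points higher in DOCA than in control (exact permutation p = 0.771), and the finerenone, spironolactone and amiloride means differed from DOCA by -7.23, -8.81 and -6.07 points (exact permutation p = 0.548, 0.514 and 0.80), with signs that each turned under another setting. The mean positions of control and DOCA lay 0.0791 map units apart (exact permutation p = 0.40, one-sided for a larger distance). The finerenone, spironolactone and amiloride means lay 0.0368, 0.0298 and 0.0539 units from DOCA (exact permutation p = 0.786, 0.829 and 0.80, where amiloride cannot reach 0.05). Leaving out 1 library moved the control distance between 0.0337 and 0.139, the finerenone distance between 0.0115 and 0.113, the spironolactone distance between 0.0234 and 0.116 and the amiloride distance between 0.0100 and 0.180, and the lowest exact permutation p among these was 0.0857. Between median positions the control, finerenone, spironolactone and amiloride distances from DOCA were 0.107, 0.0925, 0.0876 and 0.0874. Without the 2 podocytes far from the island the finerenone distance was 0.0719. Podocytes made up over 50% of the neighbors for 100% of podocytes in each library but 1, a value too uniform to compare treatments with.

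Podocytes of different libraries were mixed unevenly within the island. Among the 30 nearest podocytes 29.8% came from the same library, 1.15 times the 25.9% that the numbers of podocytes give. For podocytes of Multiome libraries 49.8% of these neighbors came from Multiome libraries, for the others 5.54%, where 10.1% of all podocytes were from such libraries. In libraries with at least 20 podocytes the same-library ratio was 3.34 to 8.07 in the Multiome libraries, 0.388 to 4.17 in the untagged ones and 1.07 to 2.41 in the tagged ones without MO, of which the 3 large libraries had 1.07 to 1.13. The highest of these untagged values, 4.17 in the finerenone library of 9325 nuclei, lay within the Multiome range, and the large libraries, with most of the podocytes, weigh most in the value of 1.15. The UMAP was made after batch correction with Harmony, and distances on it are not distances in expression.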

How the data were processed

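Single-nucleus RNA-Seq of rat kidney was processed by the authors, who aligned the reads to rn6 with Cell Ranger counting introns, used SoupX against ambient RNA and DoubletFinder against doublets, filtered nuclei on genes and mitochondrial reads, corrected batches with Harmony and named clusters from markers. The submitters' processing notes list Cell Ranger 3.0.2 and 6.0.1 and Seurat 4.0.1. The deposited UMAP coordinates are a score without a unit, and library, treatment and cell type are deposited names. Libraries were not matched to samples and took their treatment from the annotation. No further column of per-library values was left unmapped. Chromatin and gene values were not analysed here, so no gene was ranked, and a gene is named only as the podocyte marker or background.

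Nuclei were counted per library with Python 3.11.15 and pandas 2.3.3, and nearest neighbors on the map were found with scikit-learn 1.9.0. With scipy 1.17.1, shares received exact (Clopper-Pearson) 95% intervals, and an upper limit for a count of 0 is 3 counts of the total. Treatments were compared over libraries by exact permutation tests of the mean, two-sided for shares, adjusted by the Benjamini-Hochberg method over 16 cell types (13 without proximal tubule), with intervals from the same test. Positions were compared in libraries with at least 20 podocytes. Correlations used 100000 resamples. The plan was to correlate all 22 libraries. Over all 22, size passed by rho (adjusted permutation p = 0.00224), and size, endothelial share and loop of Henle share passed by r (adjusted permutation p = 0.00568, 0.00568 and 0.0327), but these coefficients are not given because 3 libraries stand apart. The procedures were tested on simulated data. The simulated shares came from libraries of equal size with no library set far apart. They do not give the error rate or power in these data.

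Podocytes and the comparisons were chosen with earlier results of these data known. The split at 30000 nuclei, the arms and the correlations within name tags were added after the values were seen. Alternatives were the log2 scale, pooled nuclei, other denominators, libraries of at least 2000 nuclei, libraries without MO, name tag, and leaving out each library.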

Additional observations from a re-analysis of the deposited data

Results flagged for a closer look

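Each library was set against the others of its treatment by the gap to its nearest neighbor as part of the range. A library far from the others was found in 6 of 19 groups of values tested. Chance marks about 1 in 20 separate groups, but these groups share podocyte counts under several denominators, so these rates cannot be compared. All 6 belong to 2 libraries. The finerenone library of 40267 nuclei had 4.61% podocytes among all nuclei and 8.35 podocytes per 100 proximal tubule nuclei. The spironolactone library of 33683 nuclei had 7.68% podocytes among all nuclei and 10.7% among non-proximal-tubule nuclei. It held 156 podocytes per 100 endothelial nuclei and 27.1 per 100 proximal tubule nuclei. Among non-proximal-tubule nuclei the finerenone library of 40267 nuclei, at 10.3%, was not marked, because that of 48403 nuclei lay beside it at 9.27%.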

How the results depend on the processing

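For the podocyte shares between treatments, only unadjusted p-values were computed under the alternatives, and 4 fell below 0.05, each with 1 library left out (the control library of 1238 nuclei or the finerenone library of 9325, on both scales). DOCA minus control stayed negative in each setting (leaving out 1 library, -0.507 to -0.184 points of all nuclei and -0.960 to -0.262 of non-proximal-tubule nuclei), and finerenone minus DOCA stayed positive when 1 library was left out (0.223 to 1.32 and 2.06 to 4.48) or 1 of each group (0.168 to 1.40 and 1.98 to 4.63), but turned to -0.215 and -0.467 in untagged libraries. Spironolactone minus DOCA ranged from -0.186 to 1.70 and -0.317 to 2.28 without 1 library and from -0.241 to 1.78 and -0.398 to 2.44 without 1 of each group. It was -0.251 and -0.532 in untagged libraries and -0.186 and -0.317 in those of at most 30000 nuclei. Amiloride minus DOCA ranged from 0.0910 to 0.710 and 0.263 to 1.75 without 1 library. The arm share is unstable in sign. DOCA minus control was -0.817 with narrower arms and -3.01 to 13.0 without 1 library, finerenone minus DOCA was 6.50 and spironolactone minus DOCA 1.29 in libraries of at most 30000 nuclei, and amiloride minus DOCA was 1.63 with narrower arms. Without 1 library these 3 drug differences ranged from -13.2 to -1.20, -19.6 to 1.29 and -28.4 to 16.3. Causes were not tested. The relation of podocyte share with library size, past the threshold over all 22 libraries, had rho 0.556 in libraries of at least 2000 nuclei, 0.512 in those of at most 30000, and of the latter -0.214 in tagged and 0.309 in untagged ones, none passing adjustment. By r, size and the endothelial and loop of Henle shares passed in libraries of at least 2000 nuclei (adjusted permutation p = 0.00104, 0.0156 and 0.0487), which include the 3 large ones. In libraries of at most 30000 nuclei, rho for the loop of Henle share was -0.027 in untagged ones, for the endothelial share 0.357 in tagged ones, and for the convoluted proximal tubule share 0.132 in all, 0.048 in tagged and 0.145 in untagged ones, each opposite in sign to that over all 22.

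The 6-week comparison of DOCA with finerenone or spironolactone is 1 of the 25 combinations that leave out 1 library of each group, and which one is unknown. No paired analysis was possible because the library names carry no replicate numbers from the labels, and what a shared name stem marks is not given. Libraries of 759, 1238 and 1774 nuclei held 1, 3 and 7 podocytes, with exact upper limits of 0.732%, 0.707% and 0.811%.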
